A study of Rattus norvegicus with 16 samples.

Results

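Gene expression in the left ventricle late after the start of volume overload (VO) was compared with that early in its course. VO was created by an aortocaval fistula (ACF), a surgical shunt between the aorta and the vena cava that returns arterial blood straight to the right heart and so loads both ventricles with extra volume. The 8 arrays compared are those titled 24 weeks (n = 4) and 8 weeks (n = 4) after ACF, of 16 arrays in all, with 1 array per rat. All rats were adult male Sprague-Dawley rats weighing 300 to 350 g at surgery, and both groups had the same ACF and no other treatment, so the interval since surgery and the age that goes with it separate them and cannot be told apart. The arrays of the baseline group (n = 4) and of the rats at 16 weeks (n = 4) entered no test and are given only to place the levels. The study took 8 weeks as the phase of compensatory hypertrophy (CH). One label field of the late arrays gives 24, 25, 26 and 27 weeks in turn where their titles all give 24, and the labels do not settle which holds.

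A ventricle under VO dilates and grows by eccentric hypertrophy, and at first keeps its pumping function. Over months the fibrillar collagens and elastin that hold the wall are remodelled, fetal and stretch genes such as those of the natriuretic peptides are induced in the muscle cells, and the failing heart tends to use its fuels less well. The comparison asks how the transcripts of these systems differ between the early and the late heart. Values are log2 intensities with the median of each array set to 0, so that a level of 0 is that of the middle probe set of the array and a difference of 1 is 2-fold. Each gene is represented by 1 probe set, and levels of different genes are not comparable.

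Of 14218 genes tested, 0 passed at an adjusted p under 0.05 (0% of all genes; limma, Benjamini-Hochberg adjustment), and the smallest adjusted p was 0.987. At an unadjusted p under 0.05, 346 genes (2.43%) were higher at 24 weeks and 347 (2.44%) were lower. All 4 late arrays lay above all 4 early arrays for 162 genes (1.14%), and below them for 173 genes (1.22%). These shares are the background for the counts of gene groups given here, and 51.1% of all genes had a difference above 0. No difference of a single gene between 8 and 24 weeks is therefore established, and genes are named for their values. The 95% intervals of this fit measure the spread between rats and do not cover the array level described below. Their end lay a median of 0.27 from the estimate on the log2 scale (1.21-fold). The interval lay within a 2-fold change in either direction for 13959 genes (98.2%) and within 1.5-fold for 12575 (88.4%), dim genes included. A model with the array level could move an estimate out of its interval. For Timp1 the interval was -0.58 to 0.38, and the difference with the level as a term over the 12 ACF arrays was 1.05. The arrays of one time correlated with each other about as well as with those of the other, with r across genes of 0.989 to 0.993 within 8 weeks, 0.984 to 0.990 within 24 weeks and 0.984 to 0.993 between the times. The spread among rats was larger at 24 weeks for 59.0% of genes, with a median SD of 0.18 against 0.15 at 8 weeks.

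A property of the arrays bears on every value. Before centring, the medians of all 4 arrays at 24 weeks and of array 2 at 8 weeks lay between 5.92 and 5.96, whereas those of arrays 1, 3 and 4 at 8 weeks lay between 6.13 and 6.15. The level thus goes largely with time. Where the early arrays were limited to array 2, or the level was a term in the model, many differences shrank or changed sign. Against array 2 alone, 10 of the 91 named genes at an unadjusted p under 0.05 changed sign and 30 others kept it at a size smaller by over 1.5 times. With the level as a term over the 12 ACF arrays these counts were 1 and 27. Of the 63 other named genes, 23 changed sign against array 2 alone and 16 with the level as a term. The left ventricle was recognised in all 8 arrays by its muscle markers. The regulatory myosin light chain of the ventricle, Myl2, lay between 8.15 and 8.21 at 8 weeks and between 8.18 and 8.25 at 24 weeks, and 0 of 19 measured ventricular cardiomyocyte markers had an unadjusted p under 0.05. Atrial markers, by contrast, varied between rats of the same group: Myl7, the atrial myosin light chain, lay at 4.09, 6.91, 0.00 and 6.27 at 8 weeks and at 0.45, 2.92, 6.55 and 1.93 at 24 weeks. The summed linear signal of the 5 measured atrial markers ranged from 172 to 388 at 8 weeks and from 143 to 368 at 24 weeks, and its part in the results was not tested.

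Elastin (Eln), the protein that gives the wall and its vessels recoil, had the smallest unadjusted p among all genes. It lay at 1.39, 1.38, 1.07 and 1.48 in the 8-week arrays and at 0.63, 0.72, 0.79 and 0.57 in the 24-week arrays. No late array reached the lowest early one. The difference was -0.65 ± 0.11 (SE; 95% interval -0.90 to -0.40; limma, unadjusted p = 0.000122), and it stayed between -0.80 and -0.37 under every alternative of the processing. The late mean of 0.68 lay near the baseline mean of 0.73 ± 0.27 (SD, n = 4), below the means of 1.33 at 8 weeks and 1.18 at 16 weeks. A second, dimmer Eln probe set differed by only -0.08 (95% interval -0.51 to 0.34). In whole tissue, fewer cells of a type and less RNA per cell cannot be told apart.

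The other 9 of the 10 genes with the smallest p among those lower at 24 weeks, with arrays that did not overlap, differed by -0.37 to -0.94. Col6a5, a chain of the collagen VI family, lay at -0.13, -0.89, -0.52 and -0.34 early and at -1.22, -1.84, -1.48 and -1.10 late, a difference of -0.94 ± 0.19 (SE). Adamts12, a secreted metalloproteinase that cleaves matrix proteins, lay between 1.55 and 2.12 early and between 1.03 and 1.32 late, a difference of -0.60. The membrane proteins were Nalf1, an accessory factor of the sodium leak channel, at -0.54, Chrm4, the muscarinic M4 receptor, at -0.78, Lhfpl4, known from inhibitory synapses, at -0.37, and Igflr1, a receptor of the IGF-like family, at -0.46. Dmp1, an acidic phosphoprotein of mineralised matrix, differed by -0.49, Sbk1, a protein kinase, by -0.50, and Ccdc187, a coiled-coil protein, by -0.52. Eln, Sbk1 and Adamts12 aside, these genes lay below the median of the arrays, and for Nalf1, Lhfpl4 and Sbk1 a second probe set differed by 0.02, 0.16 and -0.20.

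Among the 10 genes with the smallest p that were higher at 24 weeks, Cpeb1, which controls the translation of stored mRNAs through their poly(A) tails, lay at 0.35, 0.74, 0.65 and -0.49 in the early arrays and at 2.17, 2.45, 1.56 and 0.96 in the late ones. Its difference was 1.47 ± 0.33 (SE; 95% interval 0.74 to 2.20; unadjusted p = 0.00101 in limma). The level at 16 weeks, 1.63, was already near that at 24 weeks. Cnpy1, a relative of the endoplasmic reticulum proteins that act on FGF signalling, differed by 1.76, but its late arrays were split, with 2 at 1.14 and 0.81 and the others at -0.70 and -0.86. Camk2b, the beta chain of the calcium/calmodulin-dependent kinase II, lay between -0.73 and -0.07 early and between 0.17 and 1.04 late, a difference of 0.89 ± 0.19, while a second probe set for it differed by 0.14.

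Cyclin D2 (Ccnd2) and the cyclin-dependent kinase inhibitor p27 (Cdkn1b), which act against each other at the entry into the cell cycle, were both among these 10 genes. Ccnd2 lay between 4.89 and 5.38 early and at 5.67, 5.96, 5.56 and 5.45 late, a difference of 0.58 ± 0.14. Cdkn1b lay at 3.56, 4.10, 3.73 and 3.79 early and at 4.24, 4.34, 4.67 and 4.27 late, a difference of 0.59 ± 0.14, with a second probe set at 0.05. Both separated the times without overlap. The remaining genes were Cdhr1, a cadherin best known from photoreceptors, at 1.01, Ro60, which binds small noncoding Y RNAs, at 0.74, Rasgef1b, an exchange factor for Ras-like GTPases, at 0.61, Gprasp1, a sorting protein of receptors, at 0.53, and Rnf208, a RING finger protein, at 0.47. A second probe set differed by 0.62 for Ro60 and by 0.15 for Rasgef1b. Cdhr1 and Ro60 lay below the median of the arrays at both times, with means of -1.59 and -1.41 early and -0.58 and -0.67 late. Cnpy1 lay below it at 8 weeks, with a mean of -1.67. All 10 higher and all 10 lower genes of these leading sets, picked for the very values shown, kept their sign under every alternative tried, but not their size. Since they were picked for arrays that do not overlap, leaving out an array or using early array 2 alone could not change their sign. With the array level as a term over the 12 ACF arrays, 3 of the higher and 4 of the lower genes were smaller by over 1.5 times, with Cdkn1b at 0.18. Against the early array of the same level 5 of the higher and 3 of the lower were, with Ccnd2 at 0.28, Chrm4 at -0.24 and Col6a5 at -0.52.

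**Figure D1:**
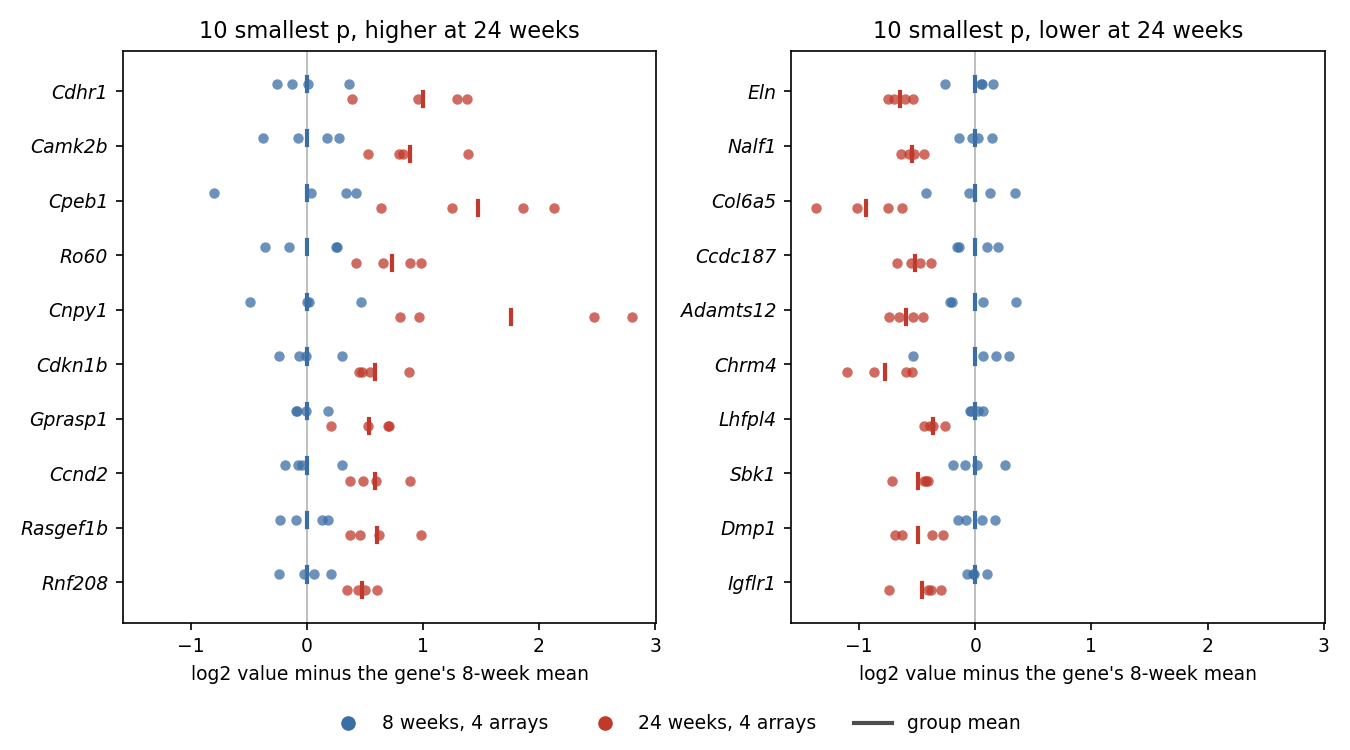
Levels of the 10 genes with the smallest p in each direction (vertical axis) in each array, as the log2 value minus the mean of the gene at 8 weeks (horizontal axis). Blue points are the 4 arrays at 8 weeks, red points the 4 arrays at 24 weeks and short bars the group means; the genes were chosen for arrays that do not overlap, so the separation is a description, and Cnpy1 shows the widest late spread.

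Collagens and their partners had the most members at a small p, by number, among the 50 gene lists examined, which differ in size. By share, the B cell list held more, with 2 of 5 markers (40%) lower. Of 36 measured genes for fibrillar and basement membrane collagens, elastic fibre proteins, cross-linking enzymes and proteoglycans, 9 (25%) were lower at an unadjusted p under 0.05, against 2.44% of all genes, and 2 were higher, against 2.43%. The median difference of the group was -0.09, against 0.00 over all genes, and 0 members passed after adjustment. In the group 21 genes lay below 0 and 15 above. The 9 lower members were Eln, Lox, Loxl2, Col1a2, Col3a1, Col5a1, Col5a2, Col5a3 and Col6a1, and all 9 stayed below 0 under every alternative. They were picked as lower in these same arrays, which favours a kept sign, so the sign is no separate support. With the array level as a term over the 12 ACF arrays 4 of the 9 were smaller by over 1.5 times, at -0.06 for Loxl2, -0.08 for Col5a2, -0.17 for Col5a1 and -0.29 for Lox. Their count was sensitive to single rats, since it dropped to 3 without array 1 at 24 weeks and to 5 without array 4 at 24 weeks or array 3 at 8 weeks.

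Col3a1, the chain of collagen III and one of the brightest matrix genes, lay at 5.71, 6.12, 6.06 and 6.04 at 8 weeks and at 5.41, 5.86, 5.76 and 5.55 at 24 weeks, a difference of -0.34 ± 0.13 (SE). The groups overlapped, because early array 1 lay below 2 of the late arrays. Col1a2, a chain of collagen I, differed by -0.40 (95% interval -0.77 to -0.03) and by -0.10 (95% interval -0.46 to 0.26) on a second probe set, and its partner chain Col1a1 by -0.26 (95% interval -0.68 to 0.16) on the probe set with the higher signal and by -0.81 (95% interval -1.10 to -0.52) on a second one. The collagen V chains, which nucleate collagen fibrils, differed by -0.34 (Col5a1), -0.43 (Col5a2) and -0.63 (Col5a3). Of these, Col5a3 did not overlap, with early arrays from 0.48 to 1.03 and late arrays from -0.26 to 0.39. Col6a1, a chain of the beaded collagen VI, differed by -0.27.

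Lysyl oxidase (Lox) cross-links collagen and elastin. It lay at 2.25, 1.80, 2.73 and 2.58 early and at 1.29, 2.22, 1.63 and 1.07 late, a difference of -0.79 ± 0.25 (SE; unadjusted p = 0.00991 in limma). Late array 2 stood above early array 2, and the other late arrays lay below all early ones. Against the early array of the same level alone the difference was -0.25. The mean of Lox was 1.05 at baseline and 3.05 at 16 weeks, so the late level of 1.55 lay below that at 16 weeks and above baseline. The related Loxl2 differed by -0.32, with early arrays from -0.05 to 0.44 and late arrays from -0.32 to -0.06. A second probe set differed by -0.44 for Lox and by -0.15 for Loxl2.

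Not all matrix genes leaned the same way. Fbln1, a glycoprotein of elastic fibres and basement membranes, differed by 0.47 ± 0.20 (SE), and Prelp, a leucine-rich proteoglycan that anchors matrix to basement membranes, by 0.35 ± 0.15. In both, the late arrays overlapped the early ones. The proteoglycans Dcn, Lum and Bgn differed by 0.17, 0.13 and 0.29, with intervals that included 0. Of 12 fibroblast markers, 2 were lower at an unadjusted p under 0.05, both of them collagen chains, and 8 lay above 0. The summed linear signal of the fibroblast markers ranged from 422 to 533 at 8 weeks and from 435 to 550 at 24 weeks.

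**Figure D2:**
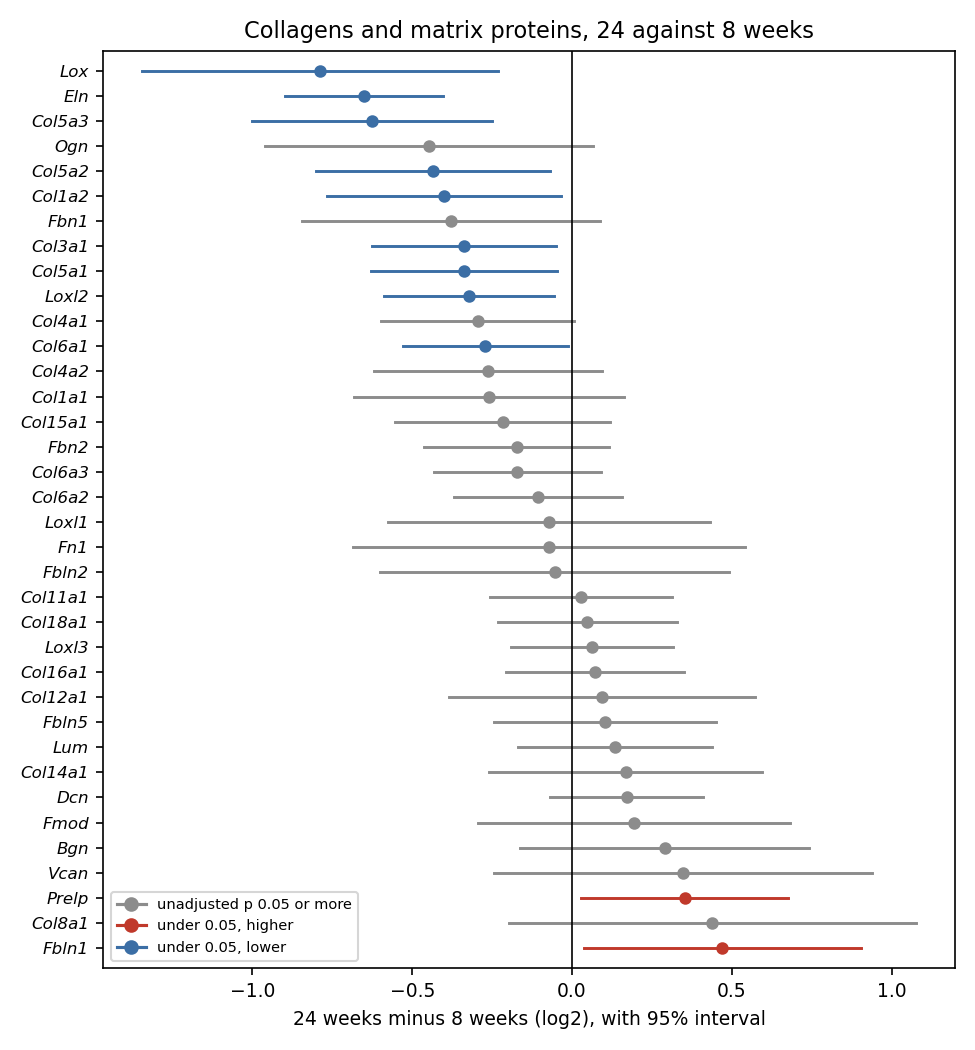
Difference between 24 and 8 weeks (log2, horizontal axis) for the 36 measured collagen and matrix genes (vertical axis), with points for the estimate and lines for the 95% interval from 4 against 4 arrays. Blue marks the 9 genes lower and red the 2 genes higher at an unadjusted p under 0.05; grey genes did not reach it, and 0 genes passed after adjustment.

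The matricellular proteins, which signal from the matrix and turn over quickly, did not share this lean. Periostin (Postn) lay at 2.12, 2.17, 2.79 and 2.75 at 8 weeks and at 2.31, 4.01, 2.88 and 2.09 at 24 weeks, a difference of 0.37 (95% interval -0.41 to 1.14). Postn differed by 0.65 against the early array of the same level and by 1.11 with the array level as a term over the 12 ACF arrays. Its mean was 0.16 ± 1.28 (SD, n = 4) at baseline and 4.44 ± 0.84 at 16 weeks, so both times lay between baseline and 16 weeks. Osteopontin (Spp1) and Timp1, an inhibitor of metalloproteinases, differed by -0.13 (95% interval -1.25 to 0.99) and -0.10 (95% interval -0.58 to 0.38), and by 1.05 and 0.32 against the early array of the same level. With the array level as a term over the 12 ACF arrays they differed by 0.84 and 1.05. Their means at 16 weeks, 3.59 and 3.98, were above those at 24 weeks, 1.03 and 2.39. Of 21 genes for matricellular proteins and matrix turnover, Comp and Adamts1 were higher at an unadjusted p under 0.05 and Adamts4, an aggrecanase, was lower. Comp, a cartilage matrix protein, differed by 0.25 and Adamts4 by -0.39, both at a dim level. Adamts1, a protease of proteoglycans, differed by 0.58 over all arrays and by -0.27 against the early array of the same level.

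Natriuretic peptides and the fetal gene programme differed little in the fit without the array level. Nppa, the gene for atrial natriuretic peptide, lay at 7.16, 7.70, 7.66 and 6.05 at 8 weeks and at 6.87, 8.32, 7.42 and 7.37 at 24 weeks, a difference of 0.35 (95% interval -0.47 to 1.17) that was -0.21 against the early array of the same level, with means of 5.66 at baseline and 7.87 at 16 weeks. Nppb, which encodes the B-type peptide, differed by -0.04 (95% interval -0.58 to 0.51). The slow and fast myosin heavy chains Myh7 and Myh6 differed by 0.12 and -0.17, skeletal actin Acta1 by -0.08 and the stretch-responsive Ankrd1 by 0.09. A second probe set differed by 0.05 for Myh7 and by -0.58 (95% interval -1.33 to 0.16) for Myh6. With the array level as a term over the 12 ACF arrays Myh7 and Myh6 differed by 0.05 and -0.47. In this group of 20 genes, 0 had an unadjusted p under 0.05 in either direction. The calcium pump of the sarcoplasmic reticulum, Atp2a2, and its inhibitor Pln differed by 0.03 and 0.01, with intervals within 0.23 of 0. Kcnd3, a channel of the transient outward potassium current, differed by 0.35 on 1 of its 3 probe sets and by -0.26 and -0.23 on the others. Asph, whose locus also encodes junctional proteins of the sarcoplasmic reticulum, differed by -0.35 over all arrays and by 0.11 against the early array of the same level. Its other probe sets differed by -0.23, 0.22 and 0.08.

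Apelin (Apln), a peptide that strengthens contraction and dilates vessels, and its receptor Aplnr both lay lower late. Apln lay at 2.28, 2.29, 2.52 and 2.71 at 8 weeks and at 2.15, 1.81, 2.05 and 1.88 at 24 weeks without overlap, a difference of -0.48 ± 0.13 (SE; unadjusted p = 0.00302 in limma). Baseline hearts had a mean of 2.72 and 16-week hearts a mean of 1.58 ± 0.82 (SD, n = 4). Aplnr differed by -0.83 ± 0.36 (SE), with overlapping arrays that ran from 1.02 to 1.99 early and from -0.33 to 1.62 late. For each of the pair, a second, dimmer probe set differed by 0.00 and 0.01. Adra1d, the alpha-1D adrenoceptor of vascular smooth muscle, differed by -0.43. In all, 3 of the 19 genes for adrenergic, angiotensin, natriuretic and apelin signalling were lower and 0 higher at an unadjusted p under 0.05.

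Von Willebrand factor (Vwf), the clotting protein that endothelial cells store and release, lay higher late, at 2.94, 3.36, 3.44 and 3.32 early and at 4.02, 4.79, 4.12 and 3.55 late. The arrays did not overlap, and the difference was 0.85 ± 0.22 (SE; 95% interval 0.37 to 1.34; unadjusted p = 0.00268 in limma). The 16-week mean was 4.24 and the baseline mean 2.93. None of the other 10 endothelial markers had an unadjusted p under 0.05, and their differences lay between -0.18 and 0.19, with Pecam1, an adhesion molecule of endothelial junctions, at 0.18 over all arrays and -0.15 against the early array of the same level. The summed linear signal of the endothelial markers ranged from 113 to 143 early and from 128 to 159 late. Procr, the endothelial receptor for protein C, named here after its value was seen, lay between -0.26 and 0.55 early and between 0.64 and 2.31 late, a difference of 1.03.

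Among 25 genes of angiogenic signalling, Fgf2 and Vegfd were higher and Apln and Vegfa lower at an unadjusted p under 0.05. Fgf2, the basic fibroblast growth factor, lay between -1.62 and -1.61 in all early arrays and at -1.44 or above in the late ones, a difference of 0.36 at a dim level. Vegfd, a growth factor of lymphatic and blood vessels, differed by 0.45. Vegfa, the main angiogenic factor of the heart muscle, lay between 4.57 and 4.79 early and between 4.33 and 4.65 late, a difference of -0.25 (95% interval -0.49 to -0.02), with a second probe set at -0.13. The receptors Kdr and Flt1 differed by -0.12 and 0.10, and by 0.46 and -0.21 against the early array of the same level.

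**Figure D3:**
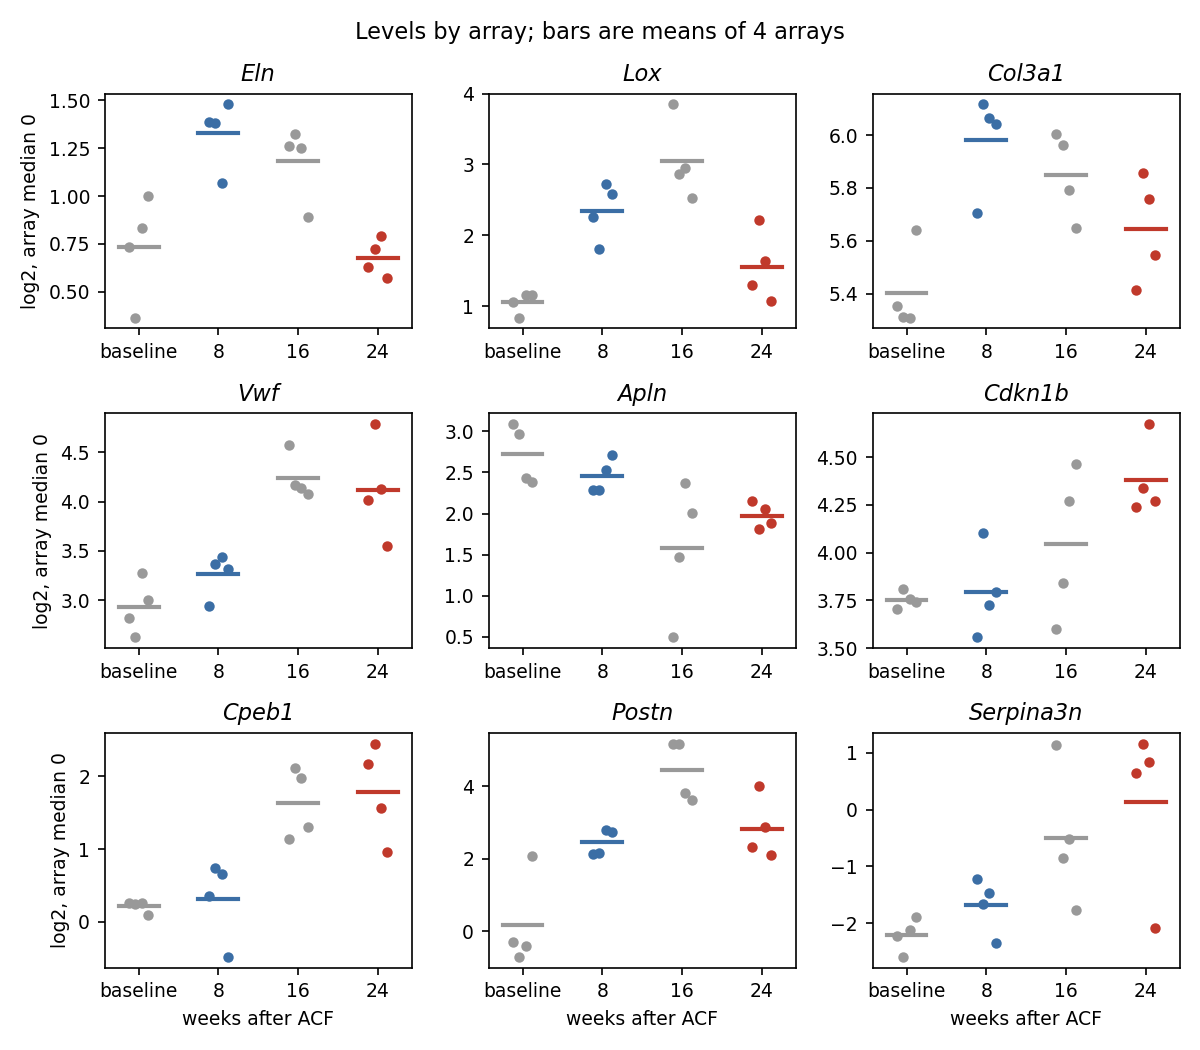
Levels (log2, array median set to 0, vertical axis) of 9 genes at baseline and at 8, 16 and 24 weeks after ACF (horizontal axis); points are single arrays, 4 per group, and bars are group means. Only 8 weeks (blue) and 24 weeks (red) were compared; Eln, Lox and Apln lie lower late, Vwf, Cdkn1b and Cpeb1 higher, the groups of Postn overlap, and 1 of the 4 late arrays of Serpina3n lies among the early ones.

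In the secreted growth factor systems, 2 of 18 genes for Wnt antagonists and the insulin-like growth factors were higher and 1 was lower at an unadjusted p under 0.05. Igfbp3, a carrier of insulin-like growth factors, differed by 0.45 with a second probe set at 0.55, Sfrp4, a secreted Wnt antagonist, by 0.42 with a second probe set at 0.10, and Igfbp1, another carrier, by -0.30. Bmp7 was the only one of 25 genes for TGF-beta, activin and BMP signalling at an unadjusted p under 0.05, with a difference of 0.25 at a dim level. The activin chain Inhba differed by 0.51 (95% interval -0.27 to 1.29). Against the early array of the same level, Igfbp3 differed by 0.36, Sfrp4 by 0.11, Igfbp1 by -0.06, Bmp7 by 0.04 and Inhba by 0.46.

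Of 40 cell cycle and replication genes, 4 were higher and 2 lower at an unadjusted p under 0.05. Beside Ccnd2 and Cdkn1b, the replication helicase subunits Mcm6 and Mcm2 differed by 0.42 and 0.29. Cdkn1a, the p53-responsive inhibitor p21, lay between 3.32 and 3.71 early and between 2.58 and 3.54 late, a difference of -0.47 with a second probe set at -0.67. Kif20a, a motor protein of cytokinesis, differed by -0.32 at a dim level. The proliferation marker Mki67 differed by 0.28 (95% interval -0.16 to 0.73), and by -0.18 against the early array of the same level.

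Immune genes showed small differences in both directions. Cd14, a receptor for bacterial lipopolysaccharide on myeloid cells, lay at 2.08, 1.62, 1.98 and 1.95 early and at 1.21, 1.65, 1.59 and 0.81 late, a difference of -0.59 ± 0.18 (SE), which became 0.06 when the array level was a term over the 12 ACF arrays. It was the only one of 16 macrophage markers at an unadjusted p under 0.05. The resident macrophage markers Mrc1 and Cd163 differed by 0.12 (95% interval -0.21 to 0.45) and 0.13 (95% interval -0.17 to 0.44), and their means at both times lay above those at baseline. The summed linear signal of the macrophage markers ran from 170 to 210 early and from 140 to 194 late.

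The B cell receptor chain Cd79b, at -0.50, and the B cell kinase Blk, at -0.29, were 2 of 5 B cell markers, all of them dim. The class II chains RT1-Da and RT1-Db1, which present antigen, differed by -0.47 and -0.48, and RT1-Ba by -0.49 (95% interval -1.03 to 0.05). These class II differences came with overlapping arrays, and against the early array of the same level they were -0.15, -0.21 and -0.05. Other probe sets differed by -0.79 for RT1-Db1 and by -1.05, -0.21 and -0.10 for RT1-Ba. Of 17 genes for class II and antigen presentation, 2 were lower and 0 higher at an unadjusted p under 0.05. In that list 8 genes lay above 0 and 9 below, with a median difference of -0.01. Of 28 interferon-stimulated genes, 22 lay below 0, against 48.9% of all genes, and 2 reached an unadjusted p under 0.05. Ifi27 lay at 5.55, 6.03, 5.64 and 6.12 early and at 5.37, 4.92, 5.67 and 4.95 late, a difference of -0.61 that stayed between -0.81 and -0.48 under every alternative. Ifit2, which binds viral RNA, differed by -0.33. Il33, an alarmin of the interleukin-1 family, differed by 0.47 with a second probe set at 0.40. The chemokine Ccl9 and the complement receptor C3ar1 differed by -0.30 and -0.25, Ccl9 at a dim level. Among 12 T and NK cell, 5 neutrophil and 8 mast cell markers, 0 had an unadjusted p under 0.05.

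The clock genes separated single rats more than times. Bmal1 and Npas2, which drive the clock, were lower and their targets Per2 and Dbp higher at 24 weeks at an unadjusted p under 0.05, out of 19 clock genes. Bmal1 lay at 2.04, -0.09, 0.92 and 2.02 early but at 0.19, 0.40, 0.39 and 0.10 late, a difference of -0.95. Dbp lay at 0.55, 3.17, 2.62 and 1.93 early and at 3.19, 2.80, 3.24 and 3.04 late, a difference of 1.00. In both genes early array 2 lay among the late arrays or beyond them, and the early arrays were spread widely while the late ones were close together. The differences of all 4 genes changed sign against early array 2 alone, to 0.36 for Bmal1, 0.57 for Npas2, -0.32 for Per2 and -0.10 for Dbp. A second Per2 probe set differed by 0.00. The hour at which the hearts were taken is not given in the sources used here, and its part was not tested. Their negative regulator Nr1d1 differed by -0.05 (95% interval -0.57 to 0.46).

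Heat shock genes were high in 2 of the 4 late hearts. Hspa1a, the inducible Hsp70, lay at 2.96, 2.93, 4.10 and 3.09 at 8 weeks and at 5.63, 7.25, 3.38 and 3.11 at 24 weeks, a difference of 1.57 (95% interval -0.09 to 3.24). Its co-chaperone Dnajb1 lay between 2.17 and 2.52 early and at 3.74, 5.32, 2.90 and 2.30 late. The same 2 late arrays were highest for Hsph1 and Dnaja1, which serve the same refolding machine. Dnaja1, Dnajb1, Hsph1 and Dnajb4 were the 4 of 25 heat shock and chaperone genes at an unadjusted p under 0.05, all higher, with differences of 0.84, 1.23, 0.94 and 0.32. Without late array 2 the difference of Dnajb1 was 0.65 and that of Hspa1a 0.77, and the count of 4 became 1. Without late array 1 the count was 0, and leaving out the other arrays one at a time gave 0 to 9. Dnajb4 differed by -0.01 against the early array of the same level. The unfolded protein response of the endoplasmic reticulum, with 20 genes, had 0 members at an unadjusted p under 0.05.

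**Figure D4:**
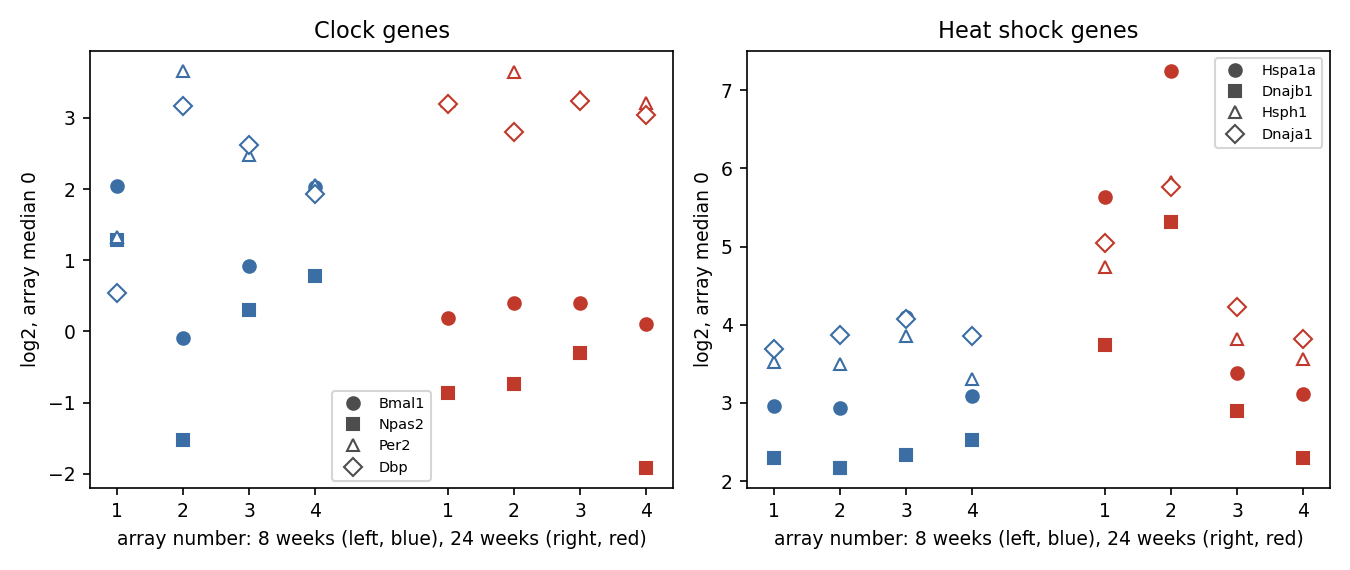
Levels (log2, array median set to 0, vertical axes) of 4 clock genes (left) and 4 heat shock genes (right) in each of the 4 arrays at 8 weeks (blue) and the 4 at 24 weeks (red), by array number. The early arrays differ among themselves in the clock genes, with array 2 near the late arrays, and late arrays 1 and 2 stand out in the heat shock genes.

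Among 24 immediate early genes, Nr4a3 and Myc were higher at an unadjusted p under 0.05. Nr4a3, an orphan nuclear receptor, differed by 0.73, and by 1.42 and 0.18 on its other probe sets. Myc differed by 0.58 over all arrays and by -0.08 against the early array of the same level. Fos, a transcription factor that responds within minutes, reached 5.10 early and 4.96 late, and its difference was -0.27 (95% interval -2.36 to 1.82), and 0.43 against the early array of the same level. In stress defence, Gsta1, a glutathione transferase, differed by 0.72, Ephx1, the microsomal epoxide hydrolase, by 0.69, and Sqstm1, the autophagy receptor p62, by 0.44. Each of these had its highest early value in early array 2, and against that array alone the differences were -0.02, 0.13 and 0.03. The other Sqstm1 probe sets differed by -0.03, 0.13 and 0.31.

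Energy metabolism was the subject of the study, and its listed array genes differed little between the times in the fit without the array level. The list here holds 23 energy genes named by the study, but not Uap1, and 22 had a probe set of their own. Of these 22, 1 had an unadjusted p under 0.05, and the 95% intervals of all 22 lay within a 2-fold change. Acsl6, an acyl-CoA synthetase that activates long-chain fatty acids, lay at 2.47, 2.08, 2.52 and 2.40 early and at 2.20, 1.89, 1.56 and 1.83 late, a difference of -0.50 ± 0.15 (SE; unadjusted p = 0.00641 in limma). The difference was -0.21 against the early array of the same level and -0.63 with the array level as a term over the 12 ACF arrays. Late array 1 overlapped the early arrays, and a second, dimmer probe set differed by -0.04. The other 21 differed by -0.30 to 0.36.

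The insulin-dependent glucose transporter Slc2a4 (GLUT4) lay at 4.81, 5.19, 5.11 and 5.30 early and at 5.23, 4.54, 5.04 and 5.24 late, a difference of -0.09 (95% interval -0.46 to 0.27). Muscle phosphofructokinase Pfkm differed by -0.04 (95% interval -0.31 to 0.22), phosphoglycerate mutase Pgam2 by -0.13 (95% interval -0.43 to 0.17) and the muscle enolase Eno3 by 0.32 (95% interval -0.23 to 0.86). With the array level as a term over the 12 ACF arrays Slc2a4 differed by -0.42, Pfkm by -0.25, Pgam2 by -0.51 and Eno3 by -0.02. Against the early array of the same level these differences were -0.17, -0.02, -0.08 and 0.32. For Slc2a4, Pfkm and Pgam2, late array 2 was the lowest of the 8 arrays. Their means at 16 weeks, 4.58, 5.13 and 5.89, were below the means at both 8 and 24 weeks. In the whole glycolysis list, 0 of 24 genes had an unadjusted p under 0.05.

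In the hexosamine pathway, which supplies the sugar for O-GlcNAc, Gfpt2, the entry enzyme, lay at 1.66, 2.26, 1.89 and 2.07 early and at 1.95, 2.60, 2.56 and 2.21 late, a difference of 0.36 (95% interval -0.01 to 0.73). That difference was 0.07 against the early array of the same level and 0.43 with the array level as a term over the 12 ACF arrays. Against a baseline mean of 1.31, the means of Gfpt2 were 1.97 at 8 weeks, 2.32 at 16 weeks and 2.33 at 24 weeks. Pgm3, a mutase of the same pathway, lay between -0.87 and -0.59 early and between -0.52 and -0.09 late without overlap, a difference of 0.36 ± 0.12 (SE), while its second probe set differed by 0.04. Pgm3 was the only one of 9 genes of this pathway at an unadjusted p under 0.05. Ogt and Oga, which add and remove O-GlcNAc, differed by 0.02 and -0.10.

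For fatty acid oxidation, the acyl-CoA dehydrogenases Acads and Acadvl differed by 0.01 and -0.04, the trifunctional protein subunit Hadha by -0.09 (95% interval -0.37 to 0.19), the thiolase Acaa2 by -0.06 and the carnitine carrier Slc25a20 by -0.17. The peroxisomal enzyme Ehhadh differed by -0.30 (95% interval -0.77 to 0.17). With the array level as a term over the 12 ACF arrays, these genes differed in turn by -0.32, -0.18, -0.14, -0.27, -0.15 and -0.51. Against the early array of the same level they differed by -0.02, -0.02, -0.13, -0.08, -0.02 and -0.0018. Of 22 genes of mitochondrial beta-oxidation, 15 lay below 0, and of 23 genes that take up, activate and shuttle fatty acids 18 lay below 0, with Acsl6 alone at an unadjusted p under 0.05. The regulators Rxra and Ppargc1b differed by -0.12 and 0.10. Lpin1, which acts in triglyceride synthesis and as a coactivator, differed by -0.34.

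The respiratory chain and ATP synthase had 57 of 63 genes below 0, yet 0 reached an unadjusted p under 0.05, and the median difference was -0.05. The intervals of all 63 genes lay within a 2-fold change and those of 61 within 1.5-fold. The direction of the median depended on the arrays, being 0.06 against the early array of the same level. The TCA cycle, with 19 genes, had 0 genes at an unadjusted p under 0.05 and a median of -0.06. Pdha1, the catalytic subunit of the pyruvate dehydrogenase complex, lay at 6.85, 6.95, 6.74 and 6.95 early and at 6.70, 6.60, 6.64 and 6.58 late. These arrays did not overlap, and the difference was -0.24 ± 0.09 (SE), with a second probe set at -0.31. Bdh1, which oxidises the ketone body beta-hydroxybutyrate, differed by -0.56 (95% interval -0.98 to -0.14), with a mean of 2.31 at 16 weeks, below the late mean of 2.74. A second Bdh1 probe set differed by -0.44.

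**Figure D5:**
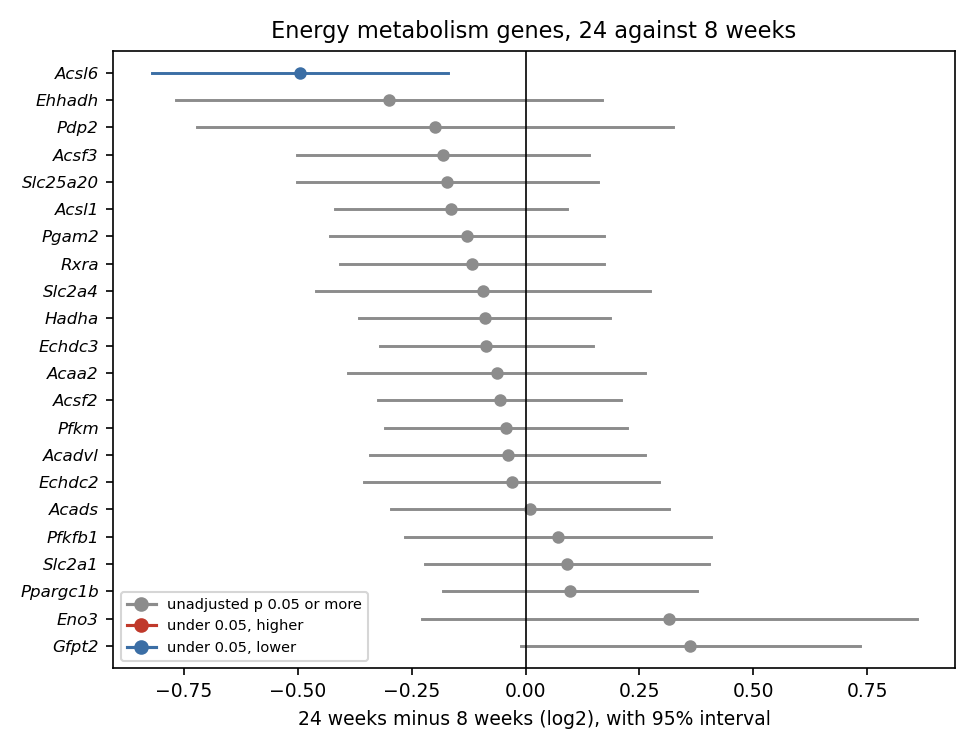
Difference between 24 and 8 weeks (log2, horizontal axis) for the 22 energy metabolism genes (vertical axis), with points for the estimate and lines for the 95% interval from 4 against 4 arrays. Acsl6 (blue) is the only gene at an unadjusted p under 0.05, and the intervals of the other 21 include 0.

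The machinery of protein synthesis and of the contractile cell held few genes at a small p. Of 42 cytosolic ribosome genes, 0 had an unadjusted p under 0.05, with a median difference of 0.04. In the mitochondrial ribosome 1 of 72 genes, Mrps26 (0.27), was higher. The splicing and RNA-binding list of 39 genes held Srsf5, a splicing factor, at -0.40 and Srsf10 at 0.25. Neither the 25 Z-disc and cytoskeleton genes nor the 11 genes of creatine and phosphotransfer held a gene at an unadjusted p under 0.05. Pdgfrb, the PDGF receptor of pericytes, at -0.36, was the only one of 12 smooth muscle and pericyte markers to reach it, and 0 erythroid, adipocyte, mesothelial or Schwann cell markers did.

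Differences over 2-fold were few. They were found for 25 genes, 19 of them higher and 6 lower at 24 weeks, and 19 of the 25 had the larger SD at 24 weeks. The arrays did not overlap for 5 of them, which were Cdhr1, Cpeb1, Cnpy1, Crtac1 and Procr. The genes of this paragraph and the next other than Cdhr1, Cpeb1 and Cnpy1 were chosen after their values were seen. Serpina3n, a secreted serine protease inhibitor of the acute phase, had the largest difference at 1.81 ± 0.59 (SE). It lay at -1.22, -1.66, -1.46 and -2.35 early and at 0.64, 1.16, 0.85 and -2.09 late, so that late array 4 stood with the early hearts. Without that array the difference was 2.56 and the adjusted p 0.0140 (limma). Leaving out the late array that lay with the early hearts favours a small p, so this value establishes no difference. No other gene passed after adjustment under any alternative.

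Tmem119, a membrane protein of bone-forming cells and microglia, showed the same late array apart, with -0.08 against 1.24, 2.77 and 1.78 in the others and -0.45 to 0.36 early. Crtac1, a secreted cartilage protein, lay between -1.87 and -1.35 early and between -1.13 and 0.63 late, a difference of 1.09, while its other probe sets differed by 0.42 and 0.15. Bex1 and Chrna1, the latter the alpha subunit of the muscle acetylcholine receptor, differed by 1.12 and 1.11. On the lower side, Sv2b, a synaptic vesicle protein, lay at 4.59, 5.35, 4.98 and 5.36 early and at 3.71, 3.92, 2.88 and 5.15 late, a difference of -1.15, and again late array 4 lay within the early range. The other Sv2b probe sets differed by 0.03 and -0.20. Nt5dc1, a nucleotidase-like protein, differed by -1.66, carried by late arrays 1 and 2 at -2.73 and -2.91, with a second probe set at -0.58. The SD of these 6 genes among the late hearts was 0.65 to 1.54.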

How the data were processed

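RNA of the left ventricle was hybridised to 1 array per rat. The authors deposited log2 intensities of probe sets, made with RMA (background correction, quantile normalization and summary) in Affymetrix Expression Console 1.2, per the submitters' processing notes. Neither the array type of the 31099 probe sets nor the RNA kit in the labels is the one that the study's methods give for the arrays.

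Each array was centred on its median. Of the probe sets, 20832 carry 1 gene symbol in the array's annotation, 436 several and 9831 none; the first kind was used, and the one with the highest mean over 16 arrays stood for each of 14218 genes. The 8 arrays were fitted with limma 3.58.1 in R 4.3.3 with 1 mean per time, and the Benjamini-Hochberg adjustment covered all genes (threshold 0.05). By the protocol each array is a separate rat, so p measures the spread between rats. Where arrays of single genes did not overlap, a two-sided exact permutation of the 8 arrays gives p = 0.0286, the smallest it allows. The number of arrays limits the precision. The statistical functions were tested on simulated data.

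Named genes were the 10 in each direction with the smallest unadjusted p among those without overlap and without locus-type names (0 genes passed), up to 4 members of each list with the smallest p, members named as examples where a list is described, and the study's energy genes that were listed and measured here. Further genes with a difference over 2-fold were named after their values were seen, and they are in the counts of named genes. The 50 lists, 23 of whose members were matched by an older symbol, and the comparison itself were chosen with earlier results of these data known. Alternatives were the fit without centring, cyclic loess, all 12 ACF or all 16 arrays, the array level as a term, arrays of the lower level alone, the replicate number as a block, the methods' t-test and threshold, other variance priors, array weights, a filter on dim genes, other uses of the probe sets, and leaving out each array in turn. Figures were drawn with matplotlib 3.10.9.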

Additional observations from a re-analysis of the deposited data

Results flagged for a closer look

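Single arrays stood apart from the other 3 of their group by Dixon's test at the 95% level in 10 of 308 groups of 4, over 154 genes and both times, where chance marks about 1 in 20 groups. Serpina3n lay at -2.09 in late array 4, against 0.64 to 1.16 in the other late arrays. Early array 1 had Thbs4, a matricellular thrombospondin, at -0.015 (others 1.60 to 1.90) and Mcm2 at 0.46 (others 0.67 to 0.70). Early array 2 had Clock at 2.28 (others 2.88 to 3.00). Early array 3 had Hspa1a at 4.10 (others 2.93 to 3.09) and Bex1 at 4.34 (others 2.69 to 2.87). Late array 1 had Adamts4 at -2.11 (others -1.60 to -1.50), Gsta1 at 4.58 (others 4.04 to 4.07) and Ccl9 at -2.55 (others -2.80 to -2.79). Late array 2 had Sbk1 at 1.11 (others 1.38 to 1.42).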

How the results depend on the processing

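The number of genes passing after adjustment was 0 under every alternative with an adjusted p but leaving out arrays in turn, where it ranged from 0 to 1 (higher 0 to 1, lower 0 to 0); the 1 gene was Serpina3n, without array 4 at 24 weeks. The methods' threshold, a fold change above 1.5 with an unadjusted p, was met by 81 genes with limma (54 higher, 27 lower) and by 31 with the methods' t-test (21 higher, 10 lower), without adjustment. Without centring, the median of all genes moved to -0.15 and the genes at an unadjusted p under 0.05 became 61 higher and 1608 lower, against 346 and 347. Those counts were 189 and 163 with the array level as a term over the 8 arrays, 253 and 205 over the 12 ACF arrays, 139 and 135 with arrays of the lower level only, where 1 array stood for 8 weeks and was assumed to vary like the others, 574 and 543 with array weights, 142 and 121 in the upper 50% of genes, and 812 and 841 over all probe sets; leaving out single arrays gave 196 to 747 and 226 to 563. The replicate numbers did not pair the rats, since the deviations of same-numbered arrays correlated between -0.19 and 0.10; with the replicate block 0 genes passed, and 352 and 327 had an unadjusted p under 0.05. Collagen and matrix genes lower at an unadjusted p under 0.05 numbered 17 without centring, 4 with the methods' t-test and 3 to 10 when single arrays were left out, against 9. Among named genes at an unadjusted p under 0.05, 10 changed sign with the lower-level arrays only. They were Adamts1 (-0.27), Per2 (-0.32), Bmal1 (0.36), Dbp (-0.10), Npas2 (0.57), Dnajb4 (-0.0059), Myc (-0.0773), Asph (0.11), Gsta1 (-0.0205) and Ptgfr (-0.23). The array level as a term over the 8 arrays gives these same differences, because early array 2 is the only early array at the lower level. Cd14 changed sign with the level as a term over the 12 ACF arrays (0.0599) and Kcnd3 with the mean of its probe sets (-0.0491). Of the 63 other named genes, 23 changed sign with the lower-level arrays only and 16 with the level over the 12 ACF arrays. The cause was not tested. Counts of gene lists were not run under the methods' threshold or over all probe sets, and B cell, T and NK cell and mast cell markers had no gene in the upper 50%.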
